A study of Mus musculus with 6 samples.

Results

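The genes described here are 67 predicted mouse genes whose symbols consist of Gm followed only by digits. They were selected on measured values, namely at least 60 raw reads summed over the 6 libraries of the study. The table lists 1653 genes, of which 586 carry such a symbol, and 519 of those had fewer than 60 reads. The RNA came from embryonic stem cells of C57BL/6 mice, with 3 wild-type libraries and 3 Yaf2KO libraries. The Yaf2KO cells were made with Cas9, and the labels do not say whether they derive from 1 clone or several. All cells grew with serum and leukemia inhibitory factor on embryonic fibroblasts inactivated by mitomycin-C, so RNA of feeder cells can be present in every library. The study's title names expression regulation by Yaf2, and the single comparison is Yaf2KO against wild type.

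The 1653 listed genes are a part of the transcriptome, and their reads summed to between 56367 and 72975 in wild type and between 143682 and 451075 in Yaf2KO. These sums are not the depth of the libraries, which was not used here. Scaled values are CPM, reads per 1000000 listed reads after TMM scaling, so they are levels relative to the other listed genes. Yaf2 itself was not analysed here, and the genotype labels were therefore not checked against it. In bulk RNA a lower value cannot be told apart from fewer cells of a type or less RNA per cell. Whether the replicates came from separate cultures is not stated in the labels, and the p-values therefore cover only the variation among these 6 libraries, part or all of which may be technical. Of the markers of naive stem cells 7 of 15 are listed, and of the feeder fibroblast markers 5 of 20. Nanog had between 1750 and 2756 reads in wild type and between 2816 and 20052 in Yaf2KO. The collagen gene Col1a1 had between 210 and 285 reads in wild type and between 290 and 1487 in Yaf2KO. These are raw counts, and the listed reads as a whole were also more in Yaf2KO. Scaled, the 7 naive markers summed to between 57710 and 66220 CPM in wild type and between 40410 and 86620 CPM in Yaf2KO. The 5 feeder markers summed to between 17060 and 25880 CPM in wild type and between 7455 and 45770 CPM in Yaf2KO, so both sums overlapped.

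Symbols of the Gm form are provisional names given by the mouse nomenclature committee to predicted loci that have no established function. They cover processed pseudogenes, which are copies of a messenger RNA pasted back into the genome, as well as long non-coding transcripts, antisense RNAs, small nucleolar RNAs and a few reading frames. YAF2, the protein whose gene was targeted, is related to RYBP and works in the variant forms of the Polycomb group complex PRC1, which add ubiquitin to histone H2A and help keep genes silent.

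By GENCODE vM21 annotation (GRCm38, the mm10 assembly) 65 of the 67 genes were found by identifier, 55 of them with identical coordinates. The group held 17 pseudogenes, 13 lincRNAs (long non-coding RNAs between genes), 12 antisense transcripts and 6 genes annotated as protein coding. A further 11 belonged to the class TEC, which GENCODE uses for loci that await experimental support, 4 were small nucleolar RNAs (snoRNAs) and 2 were processed transcripts. The genes lay on 18 chromosomes. Of the 67, 15 overlapped a protein-coding gene on the same strand, 19 overlapped one on the opposite strand only, and 33 lay outside coding genes. The 15 include Gm9732, which overlaps only a reference gene of its own symbol under another identifier. The sources used here give no strand setting for the counting, so reads of a Gm gene and of an antisense or overlapping neighbour cannot be told apart.

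Sequence copies bear on what a read count of these genes can mean. A search of each gene's transcript against all GENCODE transcripts found a copy over at least 50% of its length for 24 of 65 genes, and 15 of these copies were at least 95% identical. The closest coding copies include messenger RNAs that are abundant in most cells. The stretches below, each 80 bases, were chosen as those with the most differing bases within the coding region of the copy. Capitals mark the bases that differ between the Gm gene and its copy, and all sequences are from GENCODE vM21. Gm28438 (chr1:24613040-24613119, minus strand) and Gm29216 (chr1:24616109-24616188, minus strand) are nuclear copies of the mitochondrial genes mt-Nd3 and mt-Co1, which encode subunits of respiratory complexes I and IV.
Gm28438: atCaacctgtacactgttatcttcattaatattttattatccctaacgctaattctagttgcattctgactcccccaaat
mt-Nd3: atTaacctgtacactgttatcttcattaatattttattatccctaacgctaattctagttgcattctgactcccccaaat
Gm29216: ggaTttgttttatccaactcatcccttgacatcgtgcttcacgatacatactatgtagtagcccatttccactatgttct
mt-Co1: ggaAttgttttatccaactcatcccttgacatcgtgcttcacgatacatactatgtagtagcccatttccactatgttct

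Gm28438 differed from mt-Nd3 at 1 of 345 aligned bases, and Gm29216 from mt-Co1 at 1 of 483. Gm12070 (chr11:26786953-26787032, plus strand) is a processed copy of Gapdh, the glycolytic glyceraldehyde phosphate dehydrogenase, and differed from it at 1 of 1002 bases. Gm9826 is a copy of Ahcy, the adenosylhomocysteinase, and differed at 11 of 1299 bases.
Gm12070: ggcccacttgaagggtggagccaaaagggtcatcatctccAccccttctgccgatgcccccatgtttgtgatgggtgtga
Gapdh: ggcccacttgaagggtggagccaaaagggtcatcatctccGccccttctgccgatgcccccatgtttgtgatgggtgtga

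In raw counts every one of the 67 genes had more reads in the 3 Yaf2KO libraries together than in the 3 wild-type libraries. The listed genes as a whole also had more reads in Yaf2KO, at least 143682 per library against at most 72975 in wild type. The share of other listed genes with more reads in Yaf2KO was not counted here. The rule also favours such genes, because 58 of the 67 reach 60 reads in Yaf2KO alone and 9 do so in wild type alone. The lowest Yaf2KO count exceeded the highest wild-type count for 29 of 67 genes (43.3%), and the reverse held for 0. The same separation was seen for 27.4% of all listed genes and for 62.3% of the 416 other listed genes with at least 60 reads. Those 416 had more reads, a median sum of 348 against 109, and low counts overlap more easily. The gap between the shares is therefore not read as a trait of Gm genes. With a library left out the count of 29 can only stay or rise, and it was 44 without wild type 3 and 51 without Yaf2KO 3. The 67 genes summed to 895, 626 and 1593 reads in wild type 1 to 3 and to 7421, 3247 and 1759 reads in Yaf2KO 1 to 3. As a share of the listed reads this was 1.36%, 1.11% and 2.18% in wild type (1.55% ± 0.56, SD, n = 3) and 1.65%, 1.29% and 1.22% in Yaf2KO (1.39% ± 0.231, SD, n = 3). The shares overlapped, and an exact two-sided permutation test gave p = 0.8, where 0.1 is the smallest p that 3 against 3 libraries allow. Wild type 3 was the highest of all 6 libraries, and the wild-type mean without it was 1.24%.

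**Figure D1:**
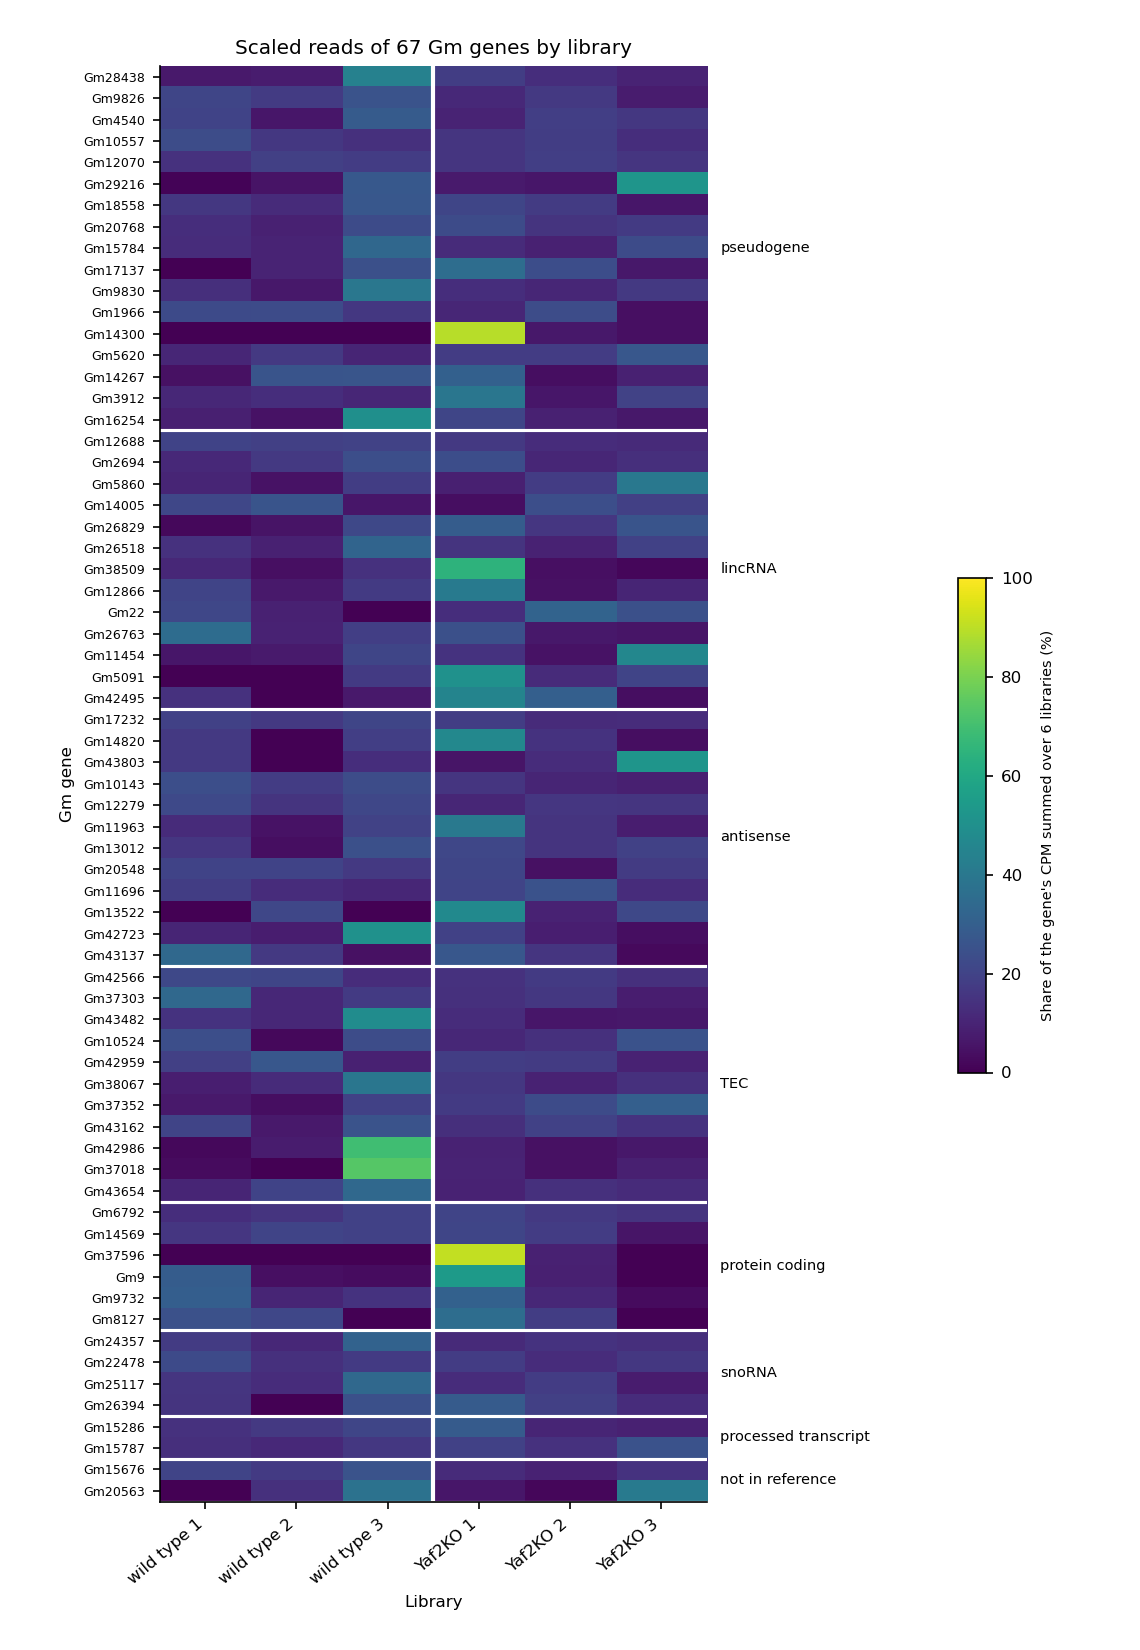
Scaled reads of the 67 Gm genes (rows, by annotated class and then by summed reads) in the 6 libraries (columns). Colour gives the library's share, in percent, of the gene's CPM summed over 6 libraries; most rows are spread over the libraries, while Gm14300 and Gm37596 are bright in Yaf2KO 1 and Gm42986 and Gm37018 in wild type 3.

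After scaling on the listed genes the separation was rare. Gm14300 and Gm5620 had every Yaf2KO value above every wild-type value (2 of 67 genes), against 7.69% of the other listed genes with at least 60 reads. For Gm14300 the order rests on 1 read in Yaf2KO 3 against 0 in wild type and cannot be read. Gm9826, Gm12688, Gm15676 and Gm10143 had every Yaf2KO value below every wild-type value (4 of 67 genes), against 3.12% of those other genes. These 6 genes are named here because they are so few. Separate groups are easier to reach with fewer libraries. The count of 6 was 14 without wild type 2, 17 without wild type 3, 13 without Yaf2KO 1 and 12 without Yaf2KO 2. The highest scaled value fell in Yaf2KO 1 for 22 genes (32.8%), in wild type 3 for 21 (31.3%), in wild type 1 and in Yaf2KO 3 for 9 each, and in wild type 2 and Yaf2KO 2 for 3 each. Among the other listed genes with at least 60 reads the highest value fell in Yaf2KO 1 for 27.4% and in wild type 3 for 21.4%.

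The low-count filter of edgeR kept 34 of the 67 genes, and 33 were not tested. None of the 34 was called by edgeR's quasi-likelihood test at an adjusted p under 0.05, where 0.798% of the 376 tested genes were called. At an unadjusted p under 0.05 edgeR had 1 of the 34, Gm43482, against 4.26% of all tested genes. DESeq2 called 0 of the 34 (2.66% of all tested genes) and limma-voom 0 (0.0%), and with unadjusted p-values both also had 0 of the 34. The adjusted p-values of edgeR ran from 0.950 to 0.991. The log2 fold changes of Yaf2KO over wild type ran from -1.53 for Gm43482 to 1.26 for Gm26829, with 27 below 0 and 7 above. Their median was -0.30, against -0.03 over all tested genes, and it was 0.17 without wild type 3. These fold changes depend on the scaling. If the 6 libraries are taken as equally deep, as the raw counts are, edgeR called 20 of 41 tested Gm genes higher in Yaf2KO (48.8%) and 0 lower, against 75.7% of all tested genes called. Without the low-count filter it called 2 of the 67, Gm14300 and Gm37596, against 0.916% of all genes. Both have 0 reads in wild type and passed the selection only through Yaf2KO 1, which fixed their direction, so nothing is read from these calls.

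**Figure D2:**
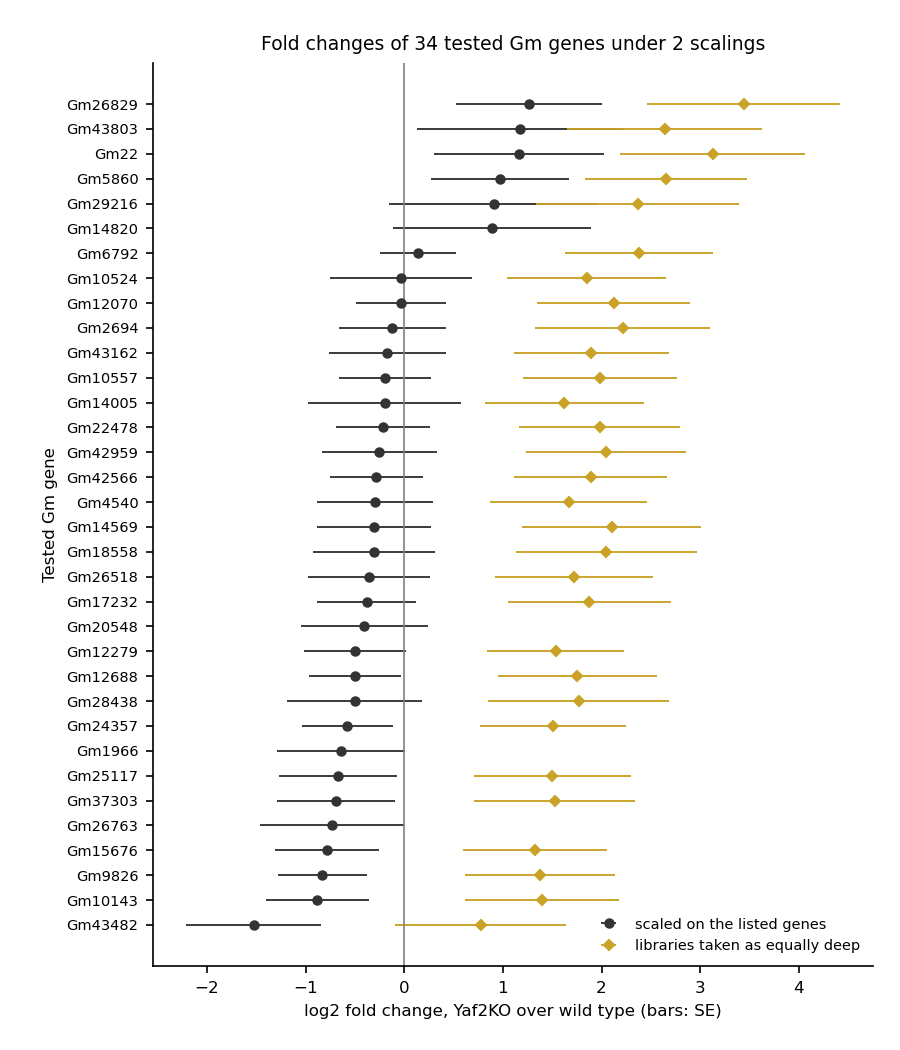
Log2 fold changes of Yaf2KO over wild type for the 34 tested Gm genes, with standard errors as bars, scaled on the listed genes (circles) and with all libraries taken as equally deep (diamonds, drawn for the 30 genes tested under both). The scaled values lie between -1.53 and 1.26 and the values at equal depth are all above 0.

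The genes annotated as protein coding were led by Gm6792, the member with the most reads. Gm6792 (chr7:6252710-6282066) had 93, 92 and 141 reads in wild type and 1047, 443 and 212 in Yaf2KO. Scaled, it stood at 1388, 1588 and 2035 CPM in wild type and 2157, 1747 and 1598 CPM in Yaf2KO. The raw counts of the groups did not overlap and the scaled levels did, and it had one of the 4 lowest coefficients of variation of all 67 genes. Its fitted log2 change was 0.14 (SE 0.38, adjusted p = 0.950, edgeR). All 6 genes of this class had their highest scaled value in Yaf2KO 1. The same held for 27.4% of the other listed genes with at least 60 reads. For Gm37596, Gm9, Gm8127 and Gm9732 the selection favoured this, because each reached 60 reads only through Yaf2KO 1. Gm14569 on the X chromosome had 239, 311 and 289 CPM in wild type and 317, 268 and 82.9 CPM in Yaf2KO. Both Gm6792 and Gm14569 led in Yaf2KO 1 by little, at 2157 against 2035 CPM and 317 against 311 CPM. Nothing is therefore read from this shared peak.

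Gm37596 and Gm14300 had 0 reads in all 3 wild-type libraries. Gm37596 (chr3:93692050-93693070), whose deposited description reads TD and POZ domain-containing protein 5-like, had 131, 7 and 0 reads in Yaf2KO 1 to 3. Genes of the Tdpoz family are known from oocytes and early embryos. Gm14300 (chr2:179612622-179613567), a processed pseudogene within the cadherin gene Cdh4 on the opposite strand, had 79, 3 and 1 reads in Yaf2KO. In both genes nearly all reads came from Yaf2KO 1, which held 94.9% and 95.2% of them, while that library held 43.3% of all listed reads. Against a floor of 3 counts over the wild-type group, the pooled Yaf2KO level was at least 10.25-fold higher for Gm37596 and at least 6.165-fold higher for Gm14300. These bounds are a description, because both genes reached 60 reads only through Yaf2KO 1, and Gm37596 was at 0 in Yaf2KO 3 as in wild type. The closest coding copy of Gm37596 is Gm10697, from which it differed at 11 of 1021 bases, and the stretch of 80 bases with the most differences (chr3:93692073-93692152, minus strand) holds 4 of them, in capitals.
Gm37596: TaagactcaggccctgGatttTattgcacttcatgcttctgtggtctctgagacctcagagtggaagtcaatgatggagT
Gm10697: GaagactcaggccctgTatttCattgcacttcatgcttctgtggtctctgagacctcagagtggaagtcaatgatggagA

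In all, 12 of the 67 genes (17.9%) had at least 70% of their reads in Yaf2KO 1, as had 8.17% of the 416 other listed genes with at least 60 reads. Each of the 12 reached 60 reads only through Yaf2KO 1. The 67 genes also had fewer reads, with a median sum of 109 against 348 for the 416. These shares are therefore a description, and nothing is read from their difference. Gm38509, a lincRNA gene downstream of Sox2 on chromosome 3, had 3, 1 and 4 reads in wild type and 126, 4 and 1 in Yaf2KO. Gm9, an X-linked coding prediction, had 8, 1 and 1 reads in wild type and 109, 9 and 0 in Yaf2KO. In Gm38509, Gm9 and Gm12866 the raw counts of Yaf2KO 2 and 3 lay within or next to the wild-type range. The antisense gene Gm14820, which overlaps exons of the histone methyltransferase gene Suv39h1, had 7, 0 and 8 reads in wild type and 141, 23 and 3 in Yaf2KO, with a log2 fold change of 0.89 (SE 1.003, adjusted p = 0.950, edgeR). Gm11963 had 3, 1 and 5 reads in wild type and 72, 14 and 4 in Yaf2KO. Yaf2KO 1 also stood apart in marker lists. The 7 listed naive stem cell markers summed to 86620 CPM there and to between 40410 and 66220 CPM in the other 5 libraries, and the 5 listed feeder markers to 7455 CPM against between 17060 and 45770. The part of these differences in the values of the Gm genes was not tested. Of 10 markers of 2-cell-like cells, a rare state of stem cell cultures that resembles the early embryo, 0 are listed.

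A promoter from RefSeq (GRCm38.p6, 250 bases before to 50 after the start) was found by symbol for 13 of the 67 genes. The number of CG dinucleotides in these 300 bases, which read the same on both strands, ran from 1 in Gm1966 to 42 in Gm2694, and its median over 32851 promoters was 7. Some windows lie away from the listed gene. That of Gm1966 is at chr7:106644596-106644895, while the gene is listed at chr7:106596743-106604035. That of Gm13522 also lies apart, at chr2:52378344-52378643, before a listed start of 52385916. Gm2694 starts 203 bases from the opposite start of the cerebellin gene Cbln1, and 3.03% of all promoters hold at least as many CG. Gm38509 held 4, and 68.6% of all promoters hold at least as many. The 2 windows (Gm2694, chr8:87472866-87473165, plus strand, and Gm38509, chr3:34771825-34772124, plus strand) are shown with CG in capitals, as the highest count and as that of the lincRNA with the most uneven reads.
Gm2694: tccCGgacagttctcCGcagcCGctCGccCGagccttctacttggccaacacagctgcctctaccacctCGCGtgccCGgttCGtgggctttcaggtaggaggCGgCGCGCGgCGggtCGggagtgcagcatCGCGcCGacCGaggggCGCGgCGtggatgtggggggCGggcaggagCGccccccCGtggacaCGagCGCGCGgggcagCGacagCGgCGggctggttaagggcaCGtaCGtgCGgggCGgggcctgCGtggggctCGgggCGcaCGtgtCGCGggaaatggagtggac
Gm38509: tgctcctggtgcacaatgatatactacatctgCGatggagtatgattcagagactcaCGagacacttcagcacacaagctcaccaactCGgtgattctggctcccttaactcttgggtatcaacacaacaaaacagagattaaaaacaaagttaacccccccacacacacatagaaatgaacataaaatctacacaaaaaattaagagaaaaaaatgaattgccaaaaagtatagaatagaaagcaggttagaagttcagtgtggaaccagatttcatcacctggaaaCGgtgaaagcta

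Among the lincRNAs Gm2694 and Gm12688 start close to a coding gene on the opposite strand. Gm2694 had 11, 14 and 24 reads in wild type against 164, 39 and 26 in Yaf2KO, and its fitted log2 change was -0.12 (SE 0.54, adjusted p = 0.950, edgeR). The sign of that value is not settled, since it was 0.25 without the low-count filter, 0.15 without wild type 3, 0.089 without Yaf2KO 2 and 2.22 at equal depth. Gm12688, which starts 1316 bases from the opposite start of the pluripotency factor gene Foxd3, had 373, 345 and 361 CPM in wild type and 305, 237 and 219 CPM in Yaf2KO. The Yaf2KO values of Gm12688 were all lower, by a log2 fold change of -0.50 (SE 0.47) that did not pass the test (adjusted p = 0.950, edgeR) and was 1.75 at equal depth. In all, 8 of the 67 genes start within 2000 bases of a coding start on the opposite strand.

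The 5 highest scaled log2 fold changes belonged to Gm26829, Gm43803, Gm22, Gm5860 and Gm29216, and none passed the test. Gm26829, a lincRNA gene on chromosome 11, had only 1, 2 and 10 reads in wild type and 95, 27 and 23 in Yaf2KO. Scaled, it stood at 14.9, 34.5 and 144 CPM in wild type and 196, 106 and 173 CPM in Yaf2KO. Its scaled groups overlap through wild type 3 alone. Its log2 fold change was 1.26 (SE 0.74, unadjusted p = 0.119, adjusted p = 0.950, edgeR), and with 1 library left out it ran from 0.91 without wild type 1 to 2.65 without wild type 3. Gm43803, which overlaps Lhfp on the opposite strand without shared exon bases, had 12, 0 and 10 reads in wild type against 29, 35 and 75 in Yaf2KO, and its log2 fold change of 1.18 became -0.11 without Yaf2KO 3. Gm5860 had 149, 69.0 and 260 CPM in wild type and 128, 256 and 573 CPM in Yaf2KO. Gm22, which the reference names Zfp469, had 8, 3 and 0 reads in wild type and 36, 45 and 18 in Yaf2KO. Gm11454 stood highest in Yaf2KO 3, with 226 CPM against between 23.7 and 101 CPM in the other 5 libraries. Gm11696, antisense to the G protein gene Gna13, stood highest in Yaf2KO 2, with 103 CPM against between 43.3 and 84.5 CPM.

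Gm14005 is the long non-coding RNA Morrbid, which lies next to the pro-apoptotic gene Bcl2l11 and is known to restrain it in short-lived myeloid cells. It had 17, 18 and 5 reads in wild type and 21, 73 and 30 in Yaf2KO. Scaled, it was lowest in Yaf2KO 1, at 43.3 CPM, and in wild type 3, at 72.2 CPM, and between 226 and 311 CPM in the other 4 libraries. The split does not follow the genotype, and the log2 fold change was -0.20 (SE 0.78, adjusted p = 0.950, edgeR).

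Among the tested pseudogenes Gm9826 was the one whose scaled groups did not overlap. It had 1313, 1087 and 1588 CPM in wild type and 729, 1026 and 482 CPM in Yaf2KO. The fold change on the log2 scale was -0.83 (SE 0.45, unadjusted p = 0.096, adjusted p = 0.950, edgeR), so it did not pass the test, and at equal depth it was 1.38. Gm12070, the Gapdh copy, was the most even member of this class, with 313, 414 and 390 CPM in wild type and 344, 406 and 339 CPM in Yaf2KO. Gm5620, a processed pseudogene, is a copy of Tuba1b at 98.2% identity. It had 3, 4 and 3 reads in wild type against 36, 19 and 15 in Yaf2KO. Its scaled values ran from 43.3 to 69.0 CPM in wild type and from 74.2 to 113 CPM in Yaf2KO. It was too low for the test. Gm4540, a copy of 1810022K09Rik, was uneven within wild type, with 672, 207 and 953 CPM against 332, 623 and 543 CPM in Yaf2KO. Gm10557 was highest in wild type 1, at 597 CPM, and stood between 332 and 469 CPM elsewhere. Gm1966, a copy of the interferon-inducible GTPase gene Gvin1 at 92.9% identity, had 8, 7 and 6 reads in wild type and 28, 31 and 3 in Yaf2KO. For genes with a near-identical copy the reads counted here may come from the parent messenger RNA or from the copy, and the counts cannot tell the sources apart.

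**Figure D3:**
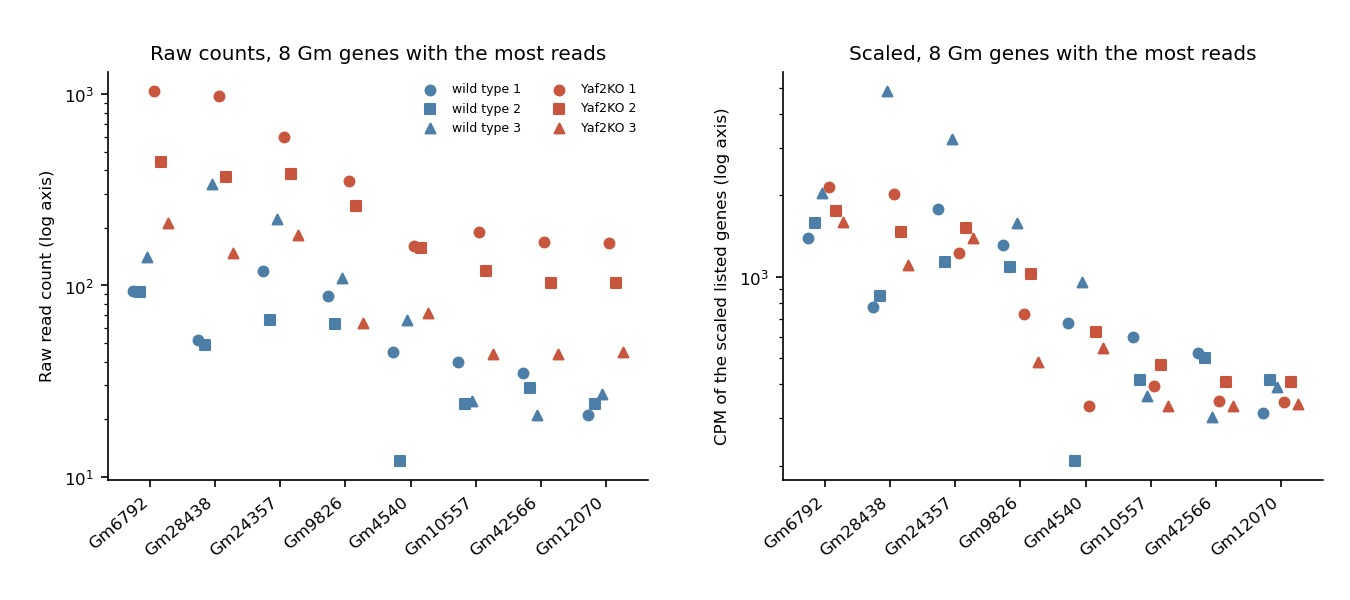
The 8 Gm genes with the most reads, as raw counts (left, log axis) and as CPM after scaling (right, log axis); blue marks wild type 1 to 3 and red Yaf2KO 1 to 3. Raw counts are highest in Yaf2KO 1 for each of the 8, and the scaled values of the genotypes interleave except for Gm9826.

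The Position column placed 8 of the 67 genes in 4 clusters, each a pair of neighbours no more than 100000 bases apart. No listed gene with another kind of symbol lay within 100000 bases of any of the 4. When all 586 Gm genes are used whatever their counts, 111 genes form 51 clusters. The pairs differed in how alike their members were across libraries.

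The first pair is Gm28438 and Gm29216 on chromosome 1 (chr1:24612775-24616197, both on the minus strand, 2586 bases apart), the mitochondrial copies shown above. Gm28438 had 52, 49 and 339 reads in wild type and 983, 370 and 147 in Yaf2KO, or 776, 846 and 4893 CPM against 2025, 1460 and 1108 CPM. Gm29216 had 2, 8 and 49 reads in wild type and 89, 40 and 177 in Yaf2KO, or 29.9, 138 and 707 CPM against 183, 158 and 1334 CPM. Both stood high in wild type 3, but Gm29216 was highest in Yaf2KO 3, where Gm28438 had the lowest of its 3 Yaf2KO values. Single libraries set their fold changes. The log2 fold change of Gm28438 was -0.50 (SE 0.68) and became 0.90 without wild type 3, and that of Gm29216 was 0.91 (SE 1.06) and became -0.75 without Yaf2KO 3. Between them lie Gm10925, with 2, 1 and 4 reads in wild type against 3, 4 and 34 in Yaf2KO, and Gm28661, with at most 7 reads in any library. Of the mitochondrial genome's own genes 2 are listed. mt-Atp8, a subunit of the ATP synthase, had 22, 27 and 246 reads in wild type and 51, 188 and 294 in Yaf2KO. It was high in wild type 3, as both copies were, and in Yaf2KO 3, as Gm29216 and Gm10925 were. Its scaled values there were 3551 and 2216 CPM, against between 105 and 742 CPM in the other 4 libraries. mt-Co2, a subunit of respiratory complex IV, was more even, from 219 CPM in Yaf2KO 3 to 563 CPM in wild type 3. Whether the reads come from the nuclear copies or from mitochondrial transcripts was not tested.

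The second pair is Gm42986 and Gm43482 on chromosome 5 (chr5:129945580-129966226, 15401 bases apart), both of class TEC and both within introns of Vkorc1l1, a paralogue of the vitamin K epoxide reductase, on the same strand. Gm42986 had 1, 3 and 33 reads in wild type and 32, 8 and 6 in Yaf2KO. Gm43482 had 9, 6 and 31 reads in wild type and 57, 14 and 8 in Yaf2KO. Both peaked in wild type 3, at 476 and 448 CPM, while the other 5 libraries held between 14.9 and 65.9 CPM of Gm42986 and between 55.2 and 134 CPM of Gm43482. Gm43482 had the lowest log2 fold change of the 34 tested Gm genes, -1.53 (SE 0.69, unadjusted p = 0.0497, adjusted p = 0.950, edgeR), and it was -0.61 without wild type 3.

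The third pair is Gm8127 and Gm9732 on chromosome 14 (chr14:43288312-43306004), coding predictions on opposite strands that have copies elsewhere in the genome, for Gm8127 at 99.6% identity and for Gm9732 with no mismatch. The reference gives the identifier of Gm9732 another symbol, 1700049E17Rik2, and another position, so this pairing rests on the deposited coordinates. The copy was searched with the transcript under that identifier. The match with no mismatch therefore describes 1700049E17Rik2 and was not measured for the deposited position of Gm9732. Gm9732 had 10, 3 and 5 reads in wild type against 75, 14 and 2 in Yaf2KO, and Gm8127 had 4, 3 and 0 in wild type and 42, 11 and 0 in Yaf2KO. Both had their highest scaled value in Yaf2KO 1 and their lowest in Yaf2KO 3. Gm8127 had 0 reads there and 0 in wild type 3. Gm17155 and Gm17154, the other listed genes nearby, had 18 and 13 reads in all.

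The last pair is Gm15787 and Gm43137 on chromosome 5 (chr5:110154400-110231201, 54103 bases apart). Each starts 197 bases from the opposite start of a coding gene, Gm15787 at Golga3, which encodes a Golgi protein, and Gm43137 at Ankle2, which encodes a protein of the nuclear envelope. Gm15787 had 59.7, 51.8 and 72.2 CPM in wild type and 86.5, 63.1 and 113 CPM in Yaf2KO. Gm43137 had 104, 51.8 and 14.4 CPM in wild type and 84.5, 47.3 and 7.54 CPM in Yaf2KO. The raw counts of Gm15787 were 4, 3 and 5 in wild type and 42, 16 and 15 in Yaf2KO. Those of Gm43137 were 7, 3 and 1 in wild type and 41, 12 and 1 in Yaf2KO. In Yaf2KO 3 the scaled value of Gm15787 was the highest and that of Gm43137 the lowest. Gm43137 had 1 read there and 1 in wild type 3, so its lowest place cannot be read.

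**Figure D4:**
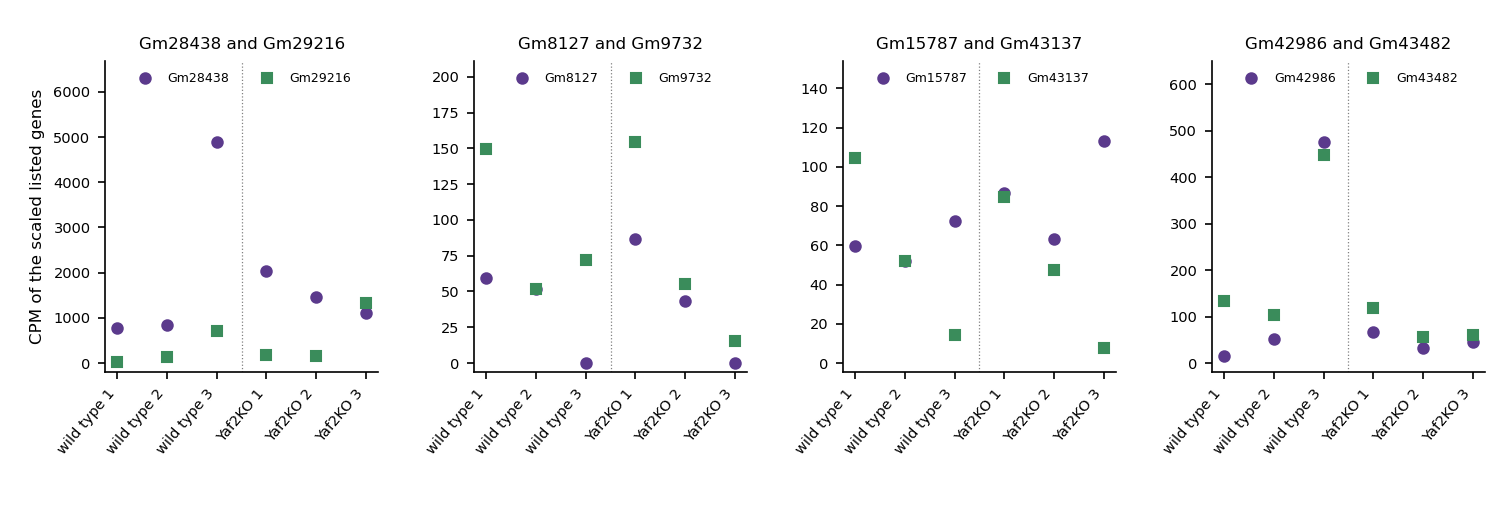
CPM (relative to the scaled listed genes, linear axis) of both members of each of the 4 neighbouring pairs in the 6 libraries; the dotted line parts wild type from Yaf2KO. Gm42986 and Gm43482 rise together in wild type 3, whereas Gm15787 and Gm43137 are apart in Yaf2KO 3, where Gm43137 had 1 read.

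The peak in wild type 3 was shared by other genes that lie within a coding gene on its own strand. Of the 15 such genes 10 had their highest scaled value in wild type 3, against 5 of the 19 on the opposite strand only and 6 of the 33 outside coding genes. Gm9732 is among the 15 only through the reference gene of its own symbol, and it is not among the 10. The lead of the 10 over the next library ran from 1.244-fold for Gm15676 and Gm43162 to 7.287-fold for Gm37018. Gm18558 also led by little, at 1.302-fold, and Gm42986 and Gm43482 lie in the same gene, Vkorc1l1. The count of 10 therefore includes genes with hardly a peak. Gm37018, of class TEC and within Enah, a regulator of actin filaments, was the most uneven, with 1, 0 and 26 reads in wild type and 25, 6 and 6 in Yaf2KO. Gm38359 lies near it, has fewer than 60 reads in all and was named after its values were seen, with 0, 2 and 21 reads in wild type and 8, 2 and 10 in Yaf2KO. Gm38067, within the nuclear protein gene Nucks1, reached 274 CPM in wild type 3 and between 59.7 and 113 CPM elsewhere. For 13 of these genes no exon bases shared with the coding gene were found. They include Gm9732 and Gm3912, whose identifiers the reference places elsewhere, so for these the shared bases were not measured. The 13 summed to 1328, 897 and 2728 CPM in wild type and to 1358, 1093 and 814 CPM in Yaf2KO. The sum was highest in wild type 3, where Gm42986, Gm43482, Gm37018 and Gm38067 held 476, 448, 375 and 274 CPM of it. Wild type 3 also had the highest sum for the 19 genes on the opposite strand only, at 2410 CPM against 2400 CPM in Yaf2KO 1. The same held for the 33 outside coding genes, at 14360 CPM, or 8761 CPM without Gm28438 and Gm29216. The summed peak is therefore not particular to genes on the same strand. The coding genes overlapped on the same strand were not analysed here, and the difference between the 3 position classes was not tested.

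The same library stood apart over a wider set. The 93 listed Gm genes of class TEC, members included, held 0.544% of the listed reads in wild type 3 and between 0.204% and 0.268% in the other 5 libraries. The 519 Gm genes with fewer than 60 reads held 1.17% in wild type 3 and between 0.515% and 0.755% in the others. Within Yaf2KO the TEC share was even (0.228% ± 0.0243, SD, n = 3), and within wild type it was not (0.339% ± 0.181, SD, n = 3). The genotypes did not differ beyond this spread (exact two-sided permutation test, p = 0.4, smallest possible 0.1). Other TEC genes peaked elsewhere. Gm37303, within Zfp280d, was highest in wild type 1, at 313 CPM against between 75.4 and 159 CPM. Gm42959 was highest in wild type 2, at 173 CPM. Gm42566 was even, with between 303 and 522 CPM in all libraries.

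**Figure D5:**
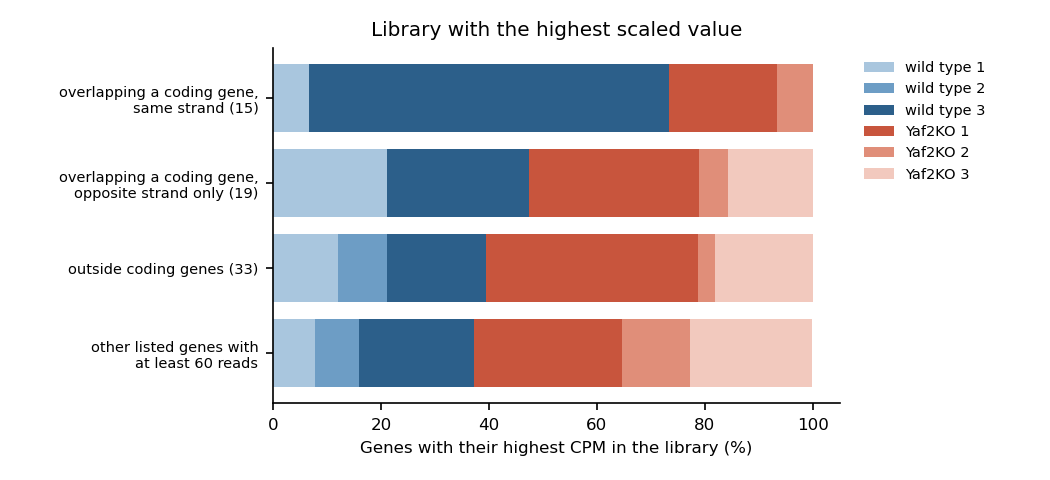
Share of genes, in percent, that have their highest CPM in each library, for Gm genes overlapping a coding gene on the same strand (15), on the opposite strand only (19) or on neither (33), and for the other listed genes with at least 60 reads (416). The wild type 3 segment takes 66.7% of the first bar and 21.4% of the last. The first bar includes Gm9732, which overlaps only a reference gene of its own symbol.

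Small nucleolar RNAs guide chemical modification of ribosomal RNA and are mostly cut from introns of other transcripts; they have no poly-A tail, and the libraries were made from poly-A selected RNA. Gm24357 (chr9:15315522-15315595, plus strand, 74 bases) lies in Taf1d, which encodes a subunit of the RNA polymerase I selectivity factor, and all its 74 bases are also exonic in a Taf1d transcript. It holds the letters of a C box, TGATGA, and after them those of a D box, CTGA, shown in capitals, an arrangement found in 24.0% of 1507 GENCODE snoRNA transcripts. Gm26394 (chr11:98999508-98999622, plus strand, within Top2a on the other strand) holds ACA 3 bases before its end, also in capitals, as 18.3% of the snoRNA transcripts do. Gm24357, where it is left in lower case, and Gm25117 hold ACA at that place too. Only the given strand of each transcript was searched.
Gm24357: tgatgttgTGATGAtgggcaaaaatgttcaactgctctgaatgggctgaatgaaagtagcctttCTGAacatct
Gm26394: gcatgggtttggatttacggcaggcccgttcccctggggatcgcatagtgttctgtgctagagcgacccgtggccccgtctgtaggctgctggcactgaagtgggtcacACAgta

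Gm24357 had 119, 66 and 224 reads in wild type and 595, 384 and 184 in Yaf2KO, or 1776, 1139 and 3233 CPM against 1226, 1515 and 1387 CPM. It was highest in wild type 3, and the other wild-type libraries lay on both sides of the Yaf2KO values. Its fitted log2 change was -0.58 (SE 0.46, adjusted p = 0.950, edgeR), and it was -0.09 without wild type 3. Gm22478, within Snrnp70 on the opposite strand, was one of the 4 most even of the 67 genes, between 201 and 358 CPM. Gm26394 was low, with 3, 0 and 5 reads in wild type and 41, 14 and 5 in Yaf2KO.

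Of the antisense genes Gm17232, opposite the threonine dehydrogenase gene Tdh, was also among the 4 most even, with 239, 207 and 260 CPM in wild type and 226.6, 153.8 and 158.3 CPM in Yaf2KO. Gm10143 overlaps exons of Fen1, a nuclease of DNA replication and repair, on the opposite strand. It had 164, 121 and 159 CPM in wild type and 105, 71.0 and 60.3 CPM in Yaf2KO, so the groups did not overlap, and its log2 fold change was -0.88 (SE 0.52, unadjusted p = 0.121, adjusted p = 0.950, edgeR). Gm15676 is not in the reference, so its class and exons are not known here. The whole locus, introns included, covers 799 exon bases of the aldolase gene Aldoa on the same strand. Gm15676 had 209, 173 and 260 CPM in wild type and 126, 98.6 and 151 CPM in Yaf2KO, with a log2 fold change of -0.78 (SE 0.52) that did not pass the test. Gm26763, a lincRNA gene, was highest in wild type 1, with 13, 3 and 7 reads in wild type and 65, 9 and 4 in Yaf2KO.

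At the edge of the selection Gm8127 and Gm43654 had 60 reads and Gm16254 had 61. Gm12031 had 58 reads and Gm12917 and Gm42500 had 56, and these fell outside. Gm12031 had 0 reads in every wild-type library and 55, 3 and 0 in Yaf2KO, while Gm16254 had 2, 1 and 12 in wild type and 35, 8 and 3 in Yaf2KO.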

How the data were processed

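The deposited files hold raw read counts per gene for each of 6 libraries, per the file headers, with gene positions. Tools recorded in the submitters' processing notes, without roles, are HTSeq 0.6.0, TopHat2 2.0.12 and Cufflinks 2.2.1, and the build is mm10. Strand setting and the choice of the listed genes are not given in the sources used here. Per the labels, poly-T beads purified the mRNA before library construction. Files were joined by gene identifier. edgeR 4.0.16 (R 4.3.3; quasi-likelihood, TMM factors 0.923 to 1.08, filterByExpr, Benjamini-Hochberg over all 376 tested genes, threshold 0.05) was fitted on the whole table, and the scripts were tested on simulated data. CPM refers to the TMM-scaled listed sum. Standard errors come from the fit. Alternatives used DESeq2 1.42.0, limma 3.58.1, other scalings and filters, and each library left out. Copies were searched with BLAST 2.17.0 over at least 50% of the transcript. Figures used matplotlib 3.10.9. Positions are 1-based.

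The members and lists were chosen with earlier results of these data known. Genes were named by rule: the 8 with the most reads, the 5 highest and 5 lowest fold changes, the 3 most raised in each library at a mean of at least 50 CPM, all members of clusters, the 3 genes on each side of the threshold, and the 4 with the lowest coefficient of variation. The genes with 0 wild-type reads, those with most of their reads in Yaf2KO 1 and others outside the rule were named after their values were seen. Counts of every pair of libraries differed by more than sampling noise, with a chi-square of 5.01 or more per degree of freedom. Fold changes are relative to the typical listed gene. Library totals were not used, so counting error is known only from the raw counts.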

Additional observations from a re-analysis of the deposited data

How the results depend on the processing

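The count of Gm genes called by edgeR was 0 and stayed 0 under the alternatives except at equal depth (20 genes) and without the low-count filter (2 genes). It was also 0 with each library left out. The median log2 fold change of -0.30 became 1.89 at equal depth, 0.13 without the filter and 0.038 with TMM factors from all listed genes, an alternative added after seeing the data. Over all tested genes the median also rose, from -0.03 to 2.12 at equal depth and to 0.20 without the filter. With each library left out the median of the Gm genes ran from -0.37 to 0.17. The 29 genes with separate raw counts became 46 at a threshold of 30 reads and 15 at 120, and 29 to 51 with a library left out. The 6 genes with separate scaled counts became 3 at a threshold of 120, and 9 to 17 with a library left out. Separate groups are easier to reach with fewer libraries, so no dependence on a given library is read from these rises. The 8 clustered genes became 111 when all listed Gm genes were used. The cause of these shifts was not tested beyond the change in scaling, filter, genes or libraries itself.

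With the replicate number as a block (replicate block) edgeR called 0 Gm genes, the median was -0.25, and Gm28438 turned to 0.073. The libraries share only numbers: deviations from the group means correlated, for equal numbers, at 0.0236, 0.143 and 0.14, and those of other pairs at between -0.326 and 0.227, and not every library correlated best with its own number. The block changed no call.

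For 26 named genes 374 log2 fold changes were computed under alternatives. Of these 313 kept their direction and side of the threshold, 6 kept it and passed the threshold at equal depth, and 55 changed sign. At equal depth the sign changed for Gm10143 (1.40), Gm10557 (1.99), Gm12070 (2.12), Gm12688 (1.75), Gm14005 (1.62), Gm15676 (1.33), Gm17232 (1.88), Gm22478 (1.98), Gm24357 (1.51), Gm2694 (2.22), Gm28438 (1.77), Gm37303 (1.52), Gm42566 (1.89), Gm42959 (2.05), Gm43482 (0.78), Gm4540 (1.67) and Gm9826 (1.38). Without the low-count filter it changed for Gm10557 (0.11), Gm12070 (0.29), Gm14005 (0.033), Gm22478 (0.11), Gm2694 (0.25), Gm28438 (0.0031), Gm42566 (0.0019), Gm42959 (0.032) and Gm4540 (0.10). With TMM factors from all listed genes it changed for Gm10557 (0.11), Gm12070 (0.29), Gm14005 (0.034), Gm22478 (0.11), Gm2694 (0.25), Gm28438 (0.0028), Gm42566 (0.0016), Gm42959 (0.042) and Gm4540 (0.10). Gm12070 also changed sign with DESeq2 size factors (0.0048), a mean CPM of at least 50 (0.052) and the DESeq2 test (0.0061), and Gm28438 with limma-voom (0.036). With 1 library left out the values ran from -0.35 to 0.12 for Gm10557, -0.14 to 0.16 for Gm12070, -0.72 to 0.29 for Gm14005, -0.339 to 0.0638 for Gm22478, -0.54 to 0.15 for Gm2694, -0.77 to 0.90 for Gm28438, -0.75 to 2.68 for Gm29216, -0.61 to 0.21 for Gm42959, -0.11 to 1.89 for Gm43803, -0.57 to 0.19 for Gm4540 and -0.0074 to 0.28 for Gm6792.

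Low counts limited the comparison: 33 of the 67 genes were not tested, and 2 had 0 reads in wild type.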
